A study of Mus musculus with 5 samples.

Results

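Receptors for GABA and glycine, the main inhibitory transmitters, were followed at the RNA level in single spiral ganglion neurons of the mouse, the cells that link the hair cells of the cochlea to the brainstem. The 6 genes were taken by name as Gabbr1, Gabbr2, Gabra2, Gabra5, Gabrb2 and Glrb, and all 6 were found among the 14715 genes of the deposited matrix. The CKO animals were bhlhb5-Cre/+; Ai14/+; Runx1F/F and the control animals bhlhb5-Cre/+; Ai14/+, so both carried the Cre recombinase and the tdTomato reporter Ai14, and floxed Runx1 was particular to CKO. There were 3 CKO samples and 2 control samples of cochlea, from animals of both sexes at postnatal days 30 to 33, and neurons were enriched by sorting for tdTomato, per the labels. The series asks how Runx1, a transcription factor, bears on the diversity of these neurons. No treatment other than the deletion is given.

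GABA-A receptors are chloride channels of 5 subunits, most often alpha, beta and gamma, that open when GABA binds. Glycine receptors are related chloride channels, in which the beta subunit encoded by Glrb joins alpha subunits and ties the channel to the scaffold protein gephyrin. GABA-B receptors work through G proteins and are obligate pairs, in which the Gabbr1 protein binds GABA and the Gabbr2 protein couples to the G protein. GABA is one of the transmitters of the olivocochlear efferent fibres, which run from the brainstem to the cochlea and end on hair cells and beneath inner hair cells on the endings of type I neurons.

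Each captured RNA molecule carries a unique molecular identifier (UMI). A level is a gene's UMIs per 10000 UMIs in a cell, as the mean over the cells named, and since reads come from 3' ends it counts molecules whatever the gene's length. Every log2 value is taken between 2 levels after adding 0.1 to each, and a gene counts as apart at 1.5-fold on that scale with a level of 0.2 or more on either side. Ratios of summed UMI rates carry exact 95% intervals, which cover counting error only. The CKO pool held 884 neurons with a median of 44120 UMIs, and the control pool held 1070 with a median of 38085. Neurons were sorted into classes by rule, none of it using a receptor gene. Type II neurons, which serve outer hair cells, had a Dupd1 level of 1 or more. Among the rest, the type I neurons of the inner hair cells, type Ic had Lypd1 at 3 or more, type Ia had Calb2 at 150 or more, and type Ib was what remained. This gave 152 type II, 384 type Ia, 216 type Ib and 132 type Ic neurons in CKO, and 119, 242, 395 and 314 neurons of these classes in control. With the genotypes pooled, most listed markers outside the rule stood where the names place them. In type II neurons Th averaged 4.47 and Prph 1.71, against 0.00347 and 0.00204 in type I neurons. B3gat1 was highest in type Ia (2.08), Ttn in type Ib (1.10), and Pou4f1 in type Ic (1.13). Against the lists, the type Ia markers Pcdh20 (2.11 in type II, 0.374 in Ia) and Rxrg (0.600 and 0.482) were highest in type II. Smad3, on the type II list, averaged 0.00170 in type II and 0.0196 in type I neurons. Some markers differed between genotypes within a class. Calb1, on the type Ib list, averaged 1.90 in CKO and 0.283 in control type Ia, and 1.46 and 0.0894 in type Ic. In type Ic B3gat1 averaged 1.04 in CKO and 0.0820 in control, while Pou4f1 was close (1.03 and 1.17). Comparisons of genotypes within a class thus do not set like against like in all markers.

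The files give the genotype of every cell and not its sample. Each genotype was therefore 1 pool without replicates, and no test between them was possible. The barcodes fall into 5 column stretches, 1, 3 and 4 of CKO cells and 2 and 5 of control cells. Their libraries are not named in the sources used here, and they serve as a description of spread only. CKO stretch 4 stood apart from the other CKO stretches: type Ia made up 12.1% of its cells, against 47.0% and 53.2% for CKO stretches 1 and 3 and 10.8% and 32.3% for the control stretches 2 and 5. The genotype recorded for its cells could not be checked. The pooled differences of Glrb, Gabbr1 and Gabbr2 are therefore also given without it, as are their class differences where these moved past counting error. Runx1 averaged 1.68 in CKO and 1.23 in control. The part deleted is not named in the labels and the counts read the 3' end, so this level checks nothing. RNA of Schwann and satellite glia, read from 11 of 12 listed genes, reached 5 UMIs per 10000 in 55.9% of the CKO pool and 61.2% of the control pool. By stretch that share ran between 47.1% and 71.3%. It was 39.9% in type II and 61.9% in type I neurons, while the summed level of the list was 25.8 and 24.9. Within the list 3 genes were far higher in type II than in type I neurons: Apoe (9.002 and 0.221), Fabp7 (2.04 and 0.0433) and Ednrb (0.667 and 0.0478). The macrophage gene Csf1r was seen only in type II neurons (0.0305). Their part in differences between type II and type I neurons was not tested beyond the values given for cells with little glia RNA. Median depth was 26409 UMIs in type II and 42719 in type I neurons.

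Glrb (chr3:80843599-80913660, minus strand) and Gabbr1 (chr17:37045966-37075067, plus strand, both mm10) are the most abundant of the 6 genes, and both were lower in type II than in type I neurons in every stretch. For that reason their promoters are shown, as the 250 bases before the RefSeq start in GRCm38.p6. Capitals mark the GC box GGGCGG on either strand, a letter pattern bound by Sp-family factors.
Glrb, chr3:80913661-80913910, minus strand: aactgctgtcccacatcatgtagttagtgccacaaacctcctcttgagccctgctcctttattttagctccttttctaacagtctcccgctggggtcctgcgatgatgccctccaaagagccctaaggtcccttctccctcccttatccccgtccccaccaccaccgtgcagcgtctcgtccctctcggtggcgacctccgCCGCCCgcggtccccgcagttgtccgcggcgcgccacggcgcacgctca
Gabbr1, chr17:37045716-37045965, plus strand: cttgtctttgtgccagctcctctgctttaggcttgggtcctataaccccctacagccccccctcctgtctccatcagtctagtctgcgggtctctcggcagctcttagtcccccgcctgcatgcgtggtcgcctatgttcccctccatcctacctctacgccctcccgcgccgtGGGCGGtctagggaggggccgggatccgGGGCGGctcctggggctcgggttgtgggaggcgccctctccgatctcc
RefSeq lists 8 starts for the 6 genes. The GC box stood in 5 of these 8 windows, against 32.7% of all 32851 promoter windows. The core letters TGTGGT or TGCGGT, which RUNX proteins recognise, stood on neither strand in any of the 8 windows and in 18.6% of all promoter windows. These are matches of letters in a short window and say nothing of binding.

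Glrb, the glycine receptor beta subunit, was the most abundant of the 6, with 12580 UMIs and at least 1 UMI in 95.5% of neurons. It averaged 0.545 in type II neurons (407 UMIs in 271 cells) and 1.73 in type I neurons (12173 UMIs in 1683 cells), a log2 difference of -1.51. The ratio of UMI rates was 0.328 (0.296 to 0.362). Type II levels were 0.522, 0.424, 0.651, 0.536 and 0.605 in stretches 1 to 5, and type I levels 1.65, 1.80, 1.56, 1.77 and 1.82. The classes did not overlap across stretches. In CKO the type II and type I levels were 0.585 and 1.63, and in control 0.495 and 1.81.

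Of the 3 receptor genes at a level of 0.2 or more, Glrb was the only one apart between type II and type I neurons, on the lower side. This contrast moves much of the transcriptome: 38.8% of 7264 genes were apart and 19.8% were lower, so 1 of 3 lies near the background. Of all genes, 4.75% had the value of Glrb or a lower one. Thinning each cell to 10000 UMIs left at least 1 Glrb UMI in 41.7% of type II (35.8% to 47.8%) and 83.1% of type I neurons (81.2% to 84.8%), and no cell was too shallow to enter. At full depth these shares were 72.7% and 99.2%. In cells with little glia RNA the levels were 0.548 in type II and 1.86 in type I neurons, a log2 difference of -1.60, and there 20.8% of genes were apart on the lower side and 41.2% on either.

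Within type I, Glrb was a little lower in type Ia (1.57) than in types Ib and Ic together (1.83), a log2 difference of -0.21. It was lower in 4 of 5 stretches, and CKO stretch 3 had 1.56 in type Ia and 1.55 in the others. Type Ic (1.82) and type Ib (1.83) differed by -0.0053 on the log2 scale. Gabbr1 and Gabbr2 were also lower in type Ia, and none of the 3 genes was apart in this contrast, where 3.75% of 6595 genes were. Nor was any of them apart between type Ic and type Ib, where 1.94% of genes were.

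Between genotypes, Glrb averaged 1.45 in CKO neurons and 1.66 in control neurons, a log2 difference of -0.19 and a ratio of 0.883 (0.853 to 0.915). The CKO stretches had 1.46, 1.38 and 1.59, and the control stretches 1.60 and 1.72. No CKO stretch reached a control stretch, but 1.59 and 1.60 lie side by side. The CKO pool held larger shares of type II and type Ia neurons, the classes with the least Glrb. The levels were close in type Ia (1.55 in CKO and 1.59 in control) and in type Ib (1.74 and 1.88), and in type Ic (1.67 and 1.89) they lay as far apart as in the pools. In type II the order turned, with 0.585 in CKO and 0.495 in control, a ratio of 1.23 whose interval ran from just under 1 to 1.51. With the 4 classes weighted equally the log2 difference was -0.072, and without CKO stretch 4 the pooled one was -0.21. In type Ic the difference was -0.17, and -0.28 without that stretch. None of the 3 genes was apart between the whole pools, where 0.898% of 6678 genes were, or within a class, where 0.549% (Ia), 1.12% (Ib), 1.34% (Ic) and 0.947% (II) of genes were.

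**Figure D1:**
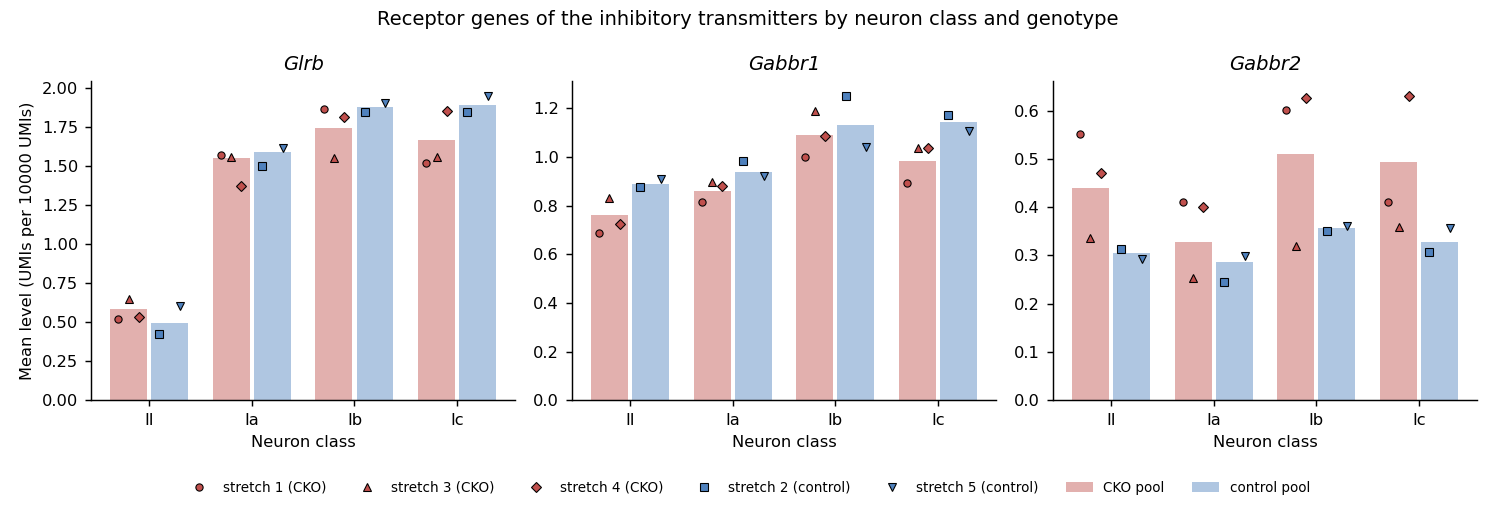
Mean level of Glrb, Gabbr1 and Gabbr2 (UMIs per 10000 UMIs, vertical axis from 0) in type II, Ia, Ib and Ic neurons; bars are the CKO and control pools and points the 5 column stretches, which are not known samples. Glrb stood at 0.424 to 0.651 in type II neurons of every stretch and at 1.37 or more in every type I class, while Gabbr2 points of CKO stretches 1 and 4 lay above those of stretch 3.

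Gabbr1, the GABA-binding partner in the GABA-B receptor, gave 7687 UMIs and was found in 95.9% of neurons. It averaged 0.817 in type II and 1.03 in type I neurons, a log2 difference of -0.30 and a ratio of 0.820 (0.753 to 0.892). Type II was lower in all 5 stretches, by log2 values between -0.47 and -0.14. Cells thinned to 10000 UMIs gave -0.15 and cells with little glia RNA -0.35. Levels in thinned cells rest on a random draw of fewer UMIs and do not correct a level for depth. Its level was 0.890 in type Ia neurons and 1.11 in types Ib and Ic together, a log2 difference of -0.29. Type Ia was the lower in 5 of 5 stretches. The level stepped down with Calb2, the gene that marks type Ia: it was 1.11 in the 140 neurons just under the Calb2 limit of 150, 0.988 in the 157 just over it, and 0.857 in the 469 at 200 or more.

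In CKO neurons Gabbr1 averaged 0.917, against 1.06 in control neurons, a log2 difference of -0.19 and a ratio of 0.866 (0.828 to 0.906). The CKO stretches had 0.848, 0.953 and 0.991, and the control stretches 1.14 and 1.01. All CKO stretches lay below both control stretches, with a narrow gap between 0.991 and 1.01. Without CKO stretch 4 the difference was -0.22. CKO was the lower within each class as well: 0.860 in CKO and 0.937 in control type Ia, 1.09 and 1.13 in type Ib, 0.986 and 1.15 in type Ic, and 0.760 and 0.889 in type II. The difference in type Ib lay above 0 without stretch 1 (0.013) or stretch 2 (0.062). Of all genes at that level, 12.4% had the same or a lower value between the pools.

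Gabbr2, the partner that couples to G proteins, gave 2720 UMIs and was the one receptor gene above 0.2 that was higher in CKO. The gene is at chr4:46662305-46991873, minus strand. Its level was 0.417 in CKO neurons and 0.327 in control neurons, a log2 difference of 0.28 and a ratio of 1.23 (1.14 to 1.33). The CKO stretches had 0.478, 0.290 and 0.578, and the control stretches 0.317 and 0.335. CKO stretches 1 and 4 were thus high and CKO stretch 3 was below both control stretches. The pooled difference was 0.16 without stretch 1, 0.17 without stretch 4, and 0.51 without stretch 3. Stretches 1 and 4 were above stretch 3 in each class, and in type Ia the value was -0.081 without stretch 1. In type Ic the log2 difference between genotypes was 0.47, and 0.20 without stretch 4. The pool levels were 0.329 in CKO and 0.287 in control type Ia, 0.510 and 0.357 in type Ib, 0.493 and 0.328 in type Ic, and 0.439 and 0.305 in type II.

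Gabbr2 and Gabbr1 were lower in deeper cells. Among type I neurons under 30000 UMIs the Gabbr2 level was 0.661 in CKO and 0.412 in control; from 30000 to 45000 it was 0.411 and 0.338; at 45000 or more it was 0.344 and 0.270. CKO was the higher in each band. For Gabbr1 the levels across these bands were 1.11, 0.938 and 0.913 in CKO and 1.23, 1.10 and 0.991 in control. Type Ia, where Gabbr1 and Gabbr2 were lower, was the deepest class, with a median of 49590 UMIs, against 38398 in type Ib and 39262 in type Ic. Thinning left a Gabbr2 UMI in 32.4% of the CKO pool (29.3% to 35.5%) and 28.5% of the control pool (25.8% to 31.3%), and these intervals overlap; at full depth the shares were 73.4% and 65.2%. Neurons with little glia RNA had 0.471 in CKO and 0.346 in control. In type I neurons with glia RNA, Glrb, Gabbr1 and Gabbr2 were 0.12 to 0.22 lower on the log2 scale than in those with little; none was apart, where 3.74% of genes were. The part of depth in the class and genotype differences of these genes was not tested.

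**Figure D2:**
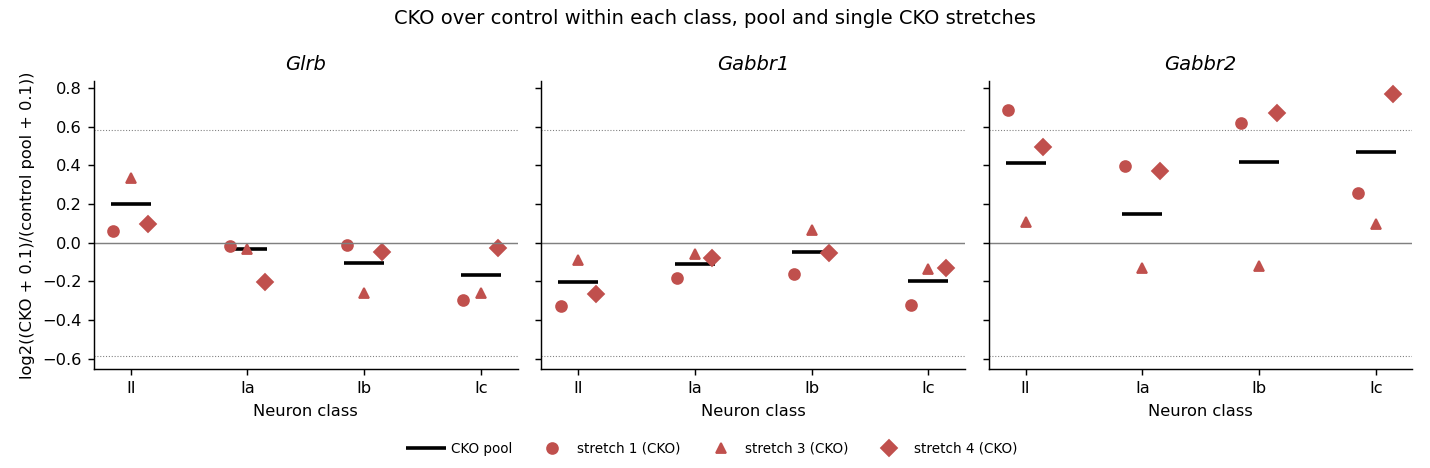
Log2 difference between CKO and the control pool (vertical axis, 0.1 added to both levels) for Glrb, Gabbr1 and Gabbr2 in each neuron class; short black lines are the CKO pool, points single CKO stretches, dotted lines 1.5-fold. Gabbr2 differences of stretches 1 and 4 lay above those of stretch 3 in every class, and Gabbr1 pool differences lay below 0 in every class.

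Unlike its partner, Gabbr2 hardly differed between type II (0.380) and type I neurons (0.365), with a log2 difference of 0.046 and a ratio of 1.11 (0.979 to 1.26). It was higher in type II in 2 stretches and lower in 3. The sign turned in cells with little glia RNA (-0.049) and in thinned cells (-0.080), whose fewer UMIs carry more counting error. Within type I it followed Gabbr1, with 0.313 in type Ia and 0.397 in types Ib and Ic, lower in 5 of 5 stretches. RNA of both GABA-B genes was found in 66.8% of neurons at full depth and in 18.6% after thinning (16.9% to 20.4%). After thinning, Gabbr2 was found in 29.5% of the neurons with Gabbr1 and in 31.6% of those without.

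The 3 GABA-A subunit genes were scarce, all below the level of 0.2, so fold changes on the log2 scale would understate them and UMI counts are given. Gabra5 gave 106 UMIs, Gabrb2 67 and Gabra2 19 in 1954 neurons, and no neuron held more than 2 UMIs of any. At least 1 of the 3 was seen in 88 of 884 cells of the CKO pool (9.95%) and 87 of 1070 cells of the control pool (8.13%). These shares are at full depth, and the CKO pool was the deeper (medians of 44120 and 38085 UMIs). All cells of the matrix were neurons, so no cell type that lacks these subunits was at hand to measure what free RNA in droplets gives.

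Gabra5, an alpha subunit known from receptors outside synapses, is at chr7:57407672-57510059, minus strand, where Gm9962 overlaps it on the other strand and the strand used in counting is not given. It was seen with 1 UMI in 271 type II neurons and 105 UMIs in 1683 type I neurons, a ratio of 0.0934 (0.00234 to 0.532). Within CKO that ratio was 0.177 (0.00439 to 1.04). The level was lower in type II in 4 of 5 stretches, and CKO stretch 1 had a ratio of 0.958 (0.0218 to 6.91). The 119 control type II neurons held none, which allows a share of cells with a UMI of up to 2.52%. Type Ic held 38 UMIs and type Ib 29, a ratio of 1.73 (1.04 to 2.92). It was 2.57 (1.01 to 7.08) in CKO and 1.43 (0.763 to 2.70) in control. The level was higher in type Ic in 4 of 5 stretches. CKO neurons held 46 UMIs and control neurons 60, a ratio of 0.833 (0.555 to 1.24). Against the control pool, CKO stretch 1 gave 0.424 (0.194 to 0.836) and CKO stretch 3 gave 1.13 (0.676 to 1.82). At this depth and with this spread between stretches, no genotype difference could be told.

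Gabra2, an alpha subunit of synaptic receptors, is at chr5:70957597-71095849, minus strand, and leaned the other way. Its 11 UMIs in type II neurons and 8 in type I neurons gave a ratio of 13.5 (4.94 to 38.6). The type II counts were 2, 2, 3, 1 and 3 in stretches 1 to 5, each from a different neuron, and the type I counts 1, 2, 1, 2 and 2. In cells with little glia RNA the counts were 6 in type II and 4 in type I neurons. CKO held 10 UMIs and control 9.

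Gabrb2, a beta subunit that helps form the GABA site, is at chr11:42419757-42629028, plus strand. It gave 15 UMIs in type II and 52 in type I neurons, a ratio of 2.83 (1.48 to 5.10), and 8 and 17 in the cells with little glia RNA. Within CKO that ratio was 1.87 (0.750 to 4.13), and CKO stretch 4 had none in type II neurons. Type Ia held 31 UMIs and types Ib and Ic together 21, a ratio of 1.97 (1.10 to 3.61). That ratio was below 1 in CKO stretches 1 (0.685) and 3 (0.901) and was 1.21 in the CKO pool (0.578 to 2.63), so the order of the classes is not settled. CKO neurons held 42 UMIs and control neurons 25, a ratio of 1.83 (1.09 to 3.13). The CKO stretches held 22, 17 and 3 UMIs in 355, 372 and 157 cells, and the control stretches 8 and 17 in 482 and 588 cells. CKO stretch 4 had the lowest level of the 5. In type Ic the counts were 9 in CKO and 2 in control, with none of the 9 from stretch 4.

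Other subunits place these counts. Gabrd, the delta subunit of receptors outside synapses, gave 1 UMI in type II and 92 in type I neurons, a ratio of 0.107 (0.00267 to 0.609). Gabra3, an alpha subunit, gave 4 and 44 UMIs, and its level was higher in type II neurons in 3 stretches and lower in 2. Gabrr2, a rho subunit, gave 0 and 5, too few to place. Gabrd thus leaned to type I neurons as Gabra5 did, and Gabra3 had no steady direction. Among the glycine receptor alpha genes listed, Glra1 was in the matrix with 6 UMIs in all neurons, beside the 12580 of Glrb.

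**Figure D3:**
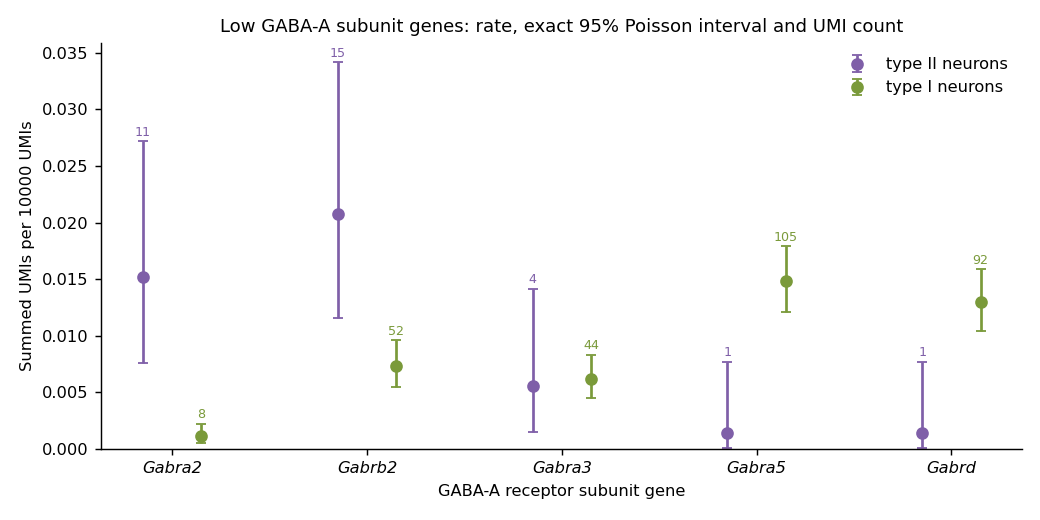
Summed UMIs per 10000 UMIs (vertical axis) of 5 scarce GABA-A subunit genes in type II and type I neurons, with exact 95% Poisson intervals for counting error and the UMI count above each. Gabra2 and Gabrb2 lay higher in type II neurons, and Gabra5 and Gabrd in type I neurons.

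Many genes that anchor and move these receptors were lower in type II neurons, as were many genes of all kinds. Of 18 scaffold and trafficking genes at a level of 0.2 or more, 10 were apart on the lower and 2 on the higher side, where 19.8% of all genes were lower and 19.1% higher. The median log2 difference of the list was -0.61, beside 0.033 for all genes. Iqsec3, an exchange factor that binds gephyrin, averaged 0.313 in type II and 3.84 in type I neurons (log2 -3.25). Lhfpl4, an auxiliary protein of GABA-A receptors, averaged 0.189 and 1.43. Plcl1, which binds GABA-A receptors, averaged 0.0703 and 0.472, and Nsf, a membrane fusion ATPase, 2.83 and 7.55. Gphn itself, chosen for its tie to Glrb after its values were seen, averaged 0.428 and 0.720 (log2 -0.63) and was lower in 5 of 5 stretches. The 2 on the higher side, also singled out afterwards, were Gabarap (8.41 and 3.35) and Gabarapl2 (8.29 and 5.33), small proteins of receptor traffic and autophagy. In cells with little glia RNA, 11 were lower and 2 higher.

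Partners and effectors of the GABA-B receptor went both ways. Of 15 at that level, 7 were apart on the higher side in type II neurons and 3 on the lower, beside 19.1% and 19.8% of all genes. The median log2 difference of the list was 0.39. Kctd12, an auxiliary subunit of the receptor, averaged 0.861 in type II and 0.0159 in type I neurons (log2 3.05, higher in 5 of 5 stretches). Kctd8, a relative named after its values were seen, averaged 0.675 and 1.19 (log2 -0.73, lower in 5 of 5). Gng2, a G protein gamma subunit, averaged 1.29 and 0.169, and Gnai2, an inhibitory alpha subunit, 3.03 and 0.627. Adcy1, an adenylyl cyclase, averaged 0.632 and 2.92. Gng2 and Gnai2 were also higher in type I neurons with glia RNA (0.262 and 0.771) than in those with little (0.0187 and 0.393). In cells with little glia RNA, Gng2 averaged 1.27 in type II and 0.0187 in type I neurons, and Gnai2 2.82 and 0.393, and both differences were as large there.

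Chloride transport sets whether these channels inhibit. Of 9 such genes at that level, 4 were apart on the lower side in type II neurons and none on the higher. Of all genes in this contrast, 19.8% were lower and 19.1% higher. Slc4a3, an anion exchanger, averaged 0.180 in type II and 0.903 in type I neurons. Slc12a7, a potassium chloride cotransporter, averaged 0.907 and 1.79. Slc12a2, the importer NKCC1, averaged 0.520 and 0.861, but it was far higher in type I neurons with glia RNA (1.20) than in those with little (0.305). Among cells with little glia RNA it averaged 0.300 in type II and 0.305 in type I neurons. There 3 genes of the list were lower in type II and none higher, where 20.8% of all genes were lower. Slc12a5, the exporter KCC2 of most central neurons, named after its values were seen, gave 21 UMIs in type II and 36 in type I neurons. Type II neurons held 7236276 UMIs of all genes and type I neurons 70980287, so the rate of Slc12a5 was higher in type II. It was scarce and is not among the 9 genes at a level of 0.2 or more. Chrnb2, a nicotinic receptor subunit, averaged 0.153 and 0.304.

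**Figure D4:**
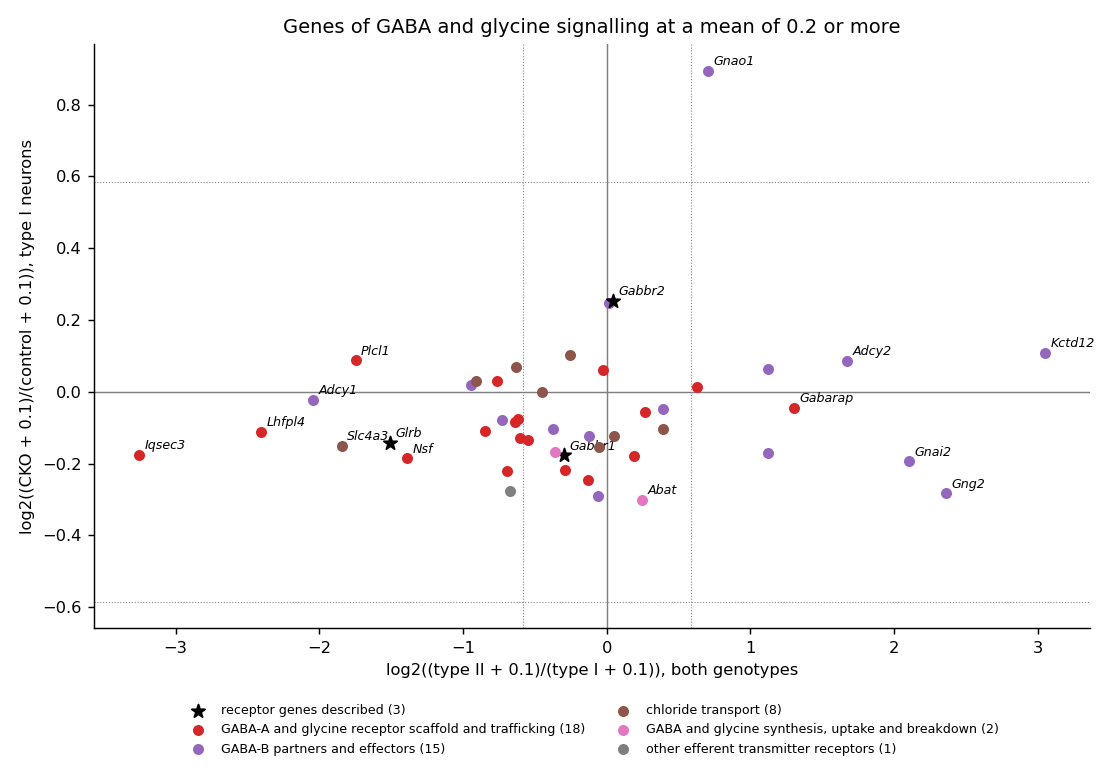
Log2 difference between type II and type I neurons (horizontal axis) against that between CKO and control type I neurons (vertical axis), 0.1 added to each level, for the receptor genes and listed pathway genes reported here at a level of 0.2 or more; dotted lines mark 1.5-fold. Differences spread over -3.25 to 3.05 between neuron types, while between genotypes Gnao1 at 0.89 was the 1 gene past 1.5-fold; the points share their type I cells.

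Between CKO and control type I neurons, 1 gene of these lists was apart, where 1.05% of 6566 genes were. Gnao1, the alpha subunit of the G protein Go through which GABA-B receptors signal, averaged 0.707 in CKO and 0.334 in control (2400 and 1355 UMIs, log2 0.89). The difference lay in types Ib and Ic. Its levels were 0.596 in CKO and 0.222 in control type Ib, 0.546 and 0.136 in type Ic, and 0.825 and 0.774 in type Ia. Type II neurons had 0.911 and 0.826. In control neurons Gnao1 was highest in the classes where CKO differed least: type Ia had 0.774, against 0.184 in types Ib and Ic together.

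CKO stretch 4 did not share that difference. In type Ib the CKO stretches 1, 3 and 4 had Gnao1 levels of 0.826, 0.636 and 0.224, and the control stretches 0.190 and 0.247. In type Ic they had 0.891, 0.691 and 0.179, against 0.114 and 0.167 in the control stretches. Stretch 4 thus lay with control for Gnao1, as it did for its share of type Ia, whereas for Gabbr2 it was the highest of all 5. Without it the CKO values of Gabbr2 are those of stretches 1 (0.478) and 3 (0.290), which lie on either side of the control stretches (0.317 and 0.335). Besides Gnao1 no listed gene was apart in type I neurons: differences short of that were those of Pianp (0.258 in CKO and 0.338 in control), Gabarapl1 (3.02 and 3.61) and Wnk1 (1.99 and 2.23).

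The genes whose pattern was most like each receptor gene were found by Pearson's r of log2 levels over 20 profiles, 5 stretches by 4 classes, among 8020 genes. The profiles share cells' depth and library, so r is a description. For Glrb they included Mcf2l and Steap2 (r 0.985 and 0.983). For Gabbr1 they were Ttc13, Hdac7 and Depdc5 (0.926, 0.924 and 0.911). For Gabbr2 they were St13, Fam204a and Zdhhc17 (0.881, 0.877 and 0.855). Fam204a had levels of 0.810, 0.543, 0.543, 0.879 and 0.594 in stretches 1 to 5, high in the same CKO stretches 1 and 4 as Gabbr2 and alike in type II (0.648) and type I neurons (0.631). Between the receptor genes r was 0.72 for Glrb and Gabbr1, 0.054 for Glrb and Gabbr2, and -0.15 for the GABA-B pair Gabbr1 and Gabbr2. For the scarce genes the closest were Slc22a18 for Gabra2 (0.920), Zfp536 for Gabra5 (0.802) and Dhx40 for Gabrb2 (0.804). Profiles of these scarce genes rest on few UMIs, at levels below the 0.1 added, so their r values say little.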

How the data were processed

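Single-cell 3' RNA libraries (10x Genomics) of sorted cochlear neurons were made by the authors, and Cell Ranger, Seurat and build mm10 are listed in the submitters' processing notes. The authors deposited 1 matrix of natural log values, ln(1 + 100000 × UMI count / cell total), a form settled from the values: 100% of those above 0 gave whole UMIs within 0.01. How cells and genes were filtered, and whether doublets were removed, is not given in the sources used here; no doublet caller was run. A second deposited record gives each cell's genotype. Recovered UMIs were used for levels, rates and thinned cells (10000 UMIs, fixed seed). Depth ran between 10379 and 100856 UMIs per cell; cells were matched by column position, since 1 barcode is shared by a CKO and a control cell. Poisson, Clopper-Pearson and conditional binomial 95% intervals cover counting error only. Little glia RNA means under 5 UMIs per 10000 over the glia list.

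The 6 genes, the classes, the pathway and marker lists and the contrasts were chosen with earlier results of these data known. Pathway genes were named as up to 4 per list with the largest log2 value at a level of 0.2 or more. The listed supporting cell, endothelial and red blood cell markers have no row among the matrix genes used here, so those cells were not measured, and of 5 macrophage genes Csf1r alone has one (level 0.00423). Hair cell (5 of 7, led by Pvalb, which neurons express) and fibroblast lists (3 of 4) summed to 40.5 and 0.900 in CKO and 40.5 and 0.898 in control. The calling rule was run on simulated counts with planted changes larger than 1.5-fold. These counts carried counting error alone, so the run cannot show how often spread between cells or libraries would give a call. Python 3.11.15, numpy 2.4.6, pandas 2.3.3, scipy 1.17.1 and matplotlib 3.10.9 were used; gene positions are from GENCODE on mm10. Some genes of the lists and of the named genes are not reported here.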

Additional observations from a re-analysis of the deposited data

How the results depend on the processing

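Values are log2 differences. Between the whole pools and between neuron classes, a change of sign was seen only for Gabra2 and Gabra5 (CKO against control) and Gabbr2 (type II against type I), all within counting error. No paired analysis was possible because cells carry no sample number, so the numbers that CKO and control samples share could not be used. Between CKO and control, equal weight for the 4 classes gave -0.072 for Glrb and 0.37 for Gabbr2. Thinned cells gave 0.17 for Gabbr2. A pseudocount of 0.01 gave -0.16 for Gabra5 and 0.37 for Gabrb2, and cells with little glia RNA gave -0.093 for Gabra5. Between type II and type I neurons, a pseudocount of 0.01 gave -1.65 for Glrb, 1.13 for Gabra2, -1.13 for Gabra5 and 0.94 for Gabrb2. Glrb was -1.34 in CKO cells and -1.68 in control cells, Gabra5 was -0.22 in control cells, and thinned cells gave -0.15 for Gabbr1. With type Ia set at Calb2 of 100, type Ia over types Ib and Ic was -0.15 for Gabbr2. Thinned levels rest on a single random draw of fewer UMIs, and a smaller pseudocount by itself widens log2 differences at low levels. The cause of the other shifts was not tested.

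Leaving out 1 column stretch at a time gave, between CKO and control, -0.23 to -0.13 for Glrb, -0.28 to -0.12 for Gabbr1 and 0.16 to 0.51 for Gabbr2, and between type II and type I -0.23 to -0.16 for Gabra5. Within classes, an alternative added after seeing the data, Glrb in type II ranged over -0.042 to 0.39, Glrb in type Ia over -0.054 to 0.046 and Gabbr1 in type Ib over -0.18 to 0.062, so their direction rests on single stretches. Of the alternatives to these comparisons 23 moved and 141 did not, 2 of them counts of genes apart without the filter on low levels (80 beside 60 between genotypes, 3404 beside 2820 between type II and type I) and the others values within counting error. At 19 to 106 UMIs per gene, depth limits Gabra2, Gabrb2 and Gabra5 to differences as large as their intervals.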
